A study of Sus scrofa with 6 samples.

Results

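Macrophages and monocytes are the phagocytes that enter an artery wall after a puncture, take up debris and foreign material, and steer repair. They carry a recognisable set of transcripts: the secreted antibacterial enzyme lysozyme (LYZ), the costimulatory ligand CD86, the actin-binding calcium protein AIF1 (also called Iba1), the A chain of complement C1q (C1QA), the haemoglobin scavenger receptor CD163, the signalling adaptors FCER1G and TYROBP, and the lipopolysaccharide co-receptor CD14. None of these is exclusive to macrophages, since neutrophils, dendritic cells, B cells, NK cells or mast cells also make several of them. These 8 genes were followed on the arrays through all 17 non-control probes whose accession is a pig RefSeq transcript of one of them, of 43603 non-control probes in all and 2384 genes that could be named. LYZ had 3 probes, CD163 had 4, CD86, AIF1, CD14 and TYROBP had 2 each, and C1QA and FCER1G had 1 each.

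The tissue was pig (Sus scrofa) femoral artery, sampled ex vivo where it had been punctured, on the left side in all samples. In 3 of them the puncture had been closed with TAG, described by the submitters as a vascular glue, and in 3 with Exoseal, a marketed closure device. No artery without a closure is among the samples used here, and the labels name neither animals nor the time after closure, so the p-values describe how far these arrays scatter, some of which may be technical. Exoseal replicate 1 is Exoseal by its title and source name and TAG by its treatment entry, and results are therefore also given without it and with it counted as TAG.

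The arrays differed in brightness. The scanner called 34.7% to 41.2% of probes well above background on the TAG arrays and 60.6% to 70.8% on the Exoseal arrays, and the 75th percentile of the signal was 19.3 to 36.4 in the first group and 61.0 to 151 in the second. By the scan recorded in the file headers, the 3 TAG arrays and Exoseal replicate 1 belonged to 1 scan and Exoseal replicates 2 and 3 to another. These scans are called slide 1 and slide 2 here, although the labels name no slides. The faintest signal that the scanner called well above background was 9.19 to 12.8 on slide 1 and 4.44 to 4.80 on slide 2, so a faint probe is called sooner on slide 2. Scaled levels below are on the log2 scale after subtraction of each array's own 75th percentile, so that 0 is that percentile. The smooth muscle genes ACTA2, DES, CNN1 and MYLK and the endothelial genes CDH5 and PECAM1 were well above background on all 6 arrays.

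By the brightest probe of each gene, 3 of the 8 genes were lower after TAG than after Exoseal: LYZ by 12.5-fold, AIF1 by 3.48-fold and CD86 by 3.09-fold. CD86 was well above background on 1 of 3 TAG arrays, and its fold takes the others at the faintest level called above background. It met the filter of 3 arrays above background through the Exoseal arrays alone, so its p is no separate support for a fall. The other 5 did not pass the test, with log2 fold changes of 0.68 for C1QA, 0.10 for CD163 and -0.43 for FCER1G. The fitted values were 0.23 for CD14 and -0.19 for TYROBP. These 2 were above background on 1 and 0 of 3 TAG arrays, so the values do not show that they kept their level. An adjusted p of 0.05 in limma with Benjamini-Hochberg adjustment was passed in the lower direction by 3.67% of all 20857 features tested and in either direction by 10.3%, against 37.5% of these 8 genes, all lower. Among the 1614 named genes tested, 8.61% passed in either direction and 3.04% in the lower one. With detection required on all 6 arrays CD86 was not tested, and 2 of 5 members and 1680 of 11702 features passed. The median log2 fold change was -0.31 for the 8 genes and 0.03 for all features. Within slide 1, where the 3 TAG arrays face Exoseal replicate 1 alone, the median of the 8 was -1.42 against -0.13 for all features. The median within slide 1 lies between CD14 (-1.54) and TYROBP (-1.29), and that over all arrays between FCER1G and TYROBP. As CD14 and TYROBP were mostly not above background in TAG, neither median shows a fall of the 8 genes as a whole. Markers of other cell types moved too: in TAG the muscle genes ACTA2 (2.22, adjusted p = 0.0242), DES (1.52, adjusted p = 0.0447) and ACTA1 (2.48, adjusted p = 0.0210) were higher in limma, and CDH5 (-2.47, adjusted p = 0.0318) of the endothelium was lower. ACTA1 was 1 of 7 skeletal muscle genes tested, of which MYH2 (-1.80), TNNT3 (-1.09) and MYH7 (-0.70) were lower and did not pass. In smooth muscle MYLK (-1.37) was lower and CNN1 (0.73) higher, and neither passed. With median scaling none of ACTA2, DES, ACTA1 and CDH5 passed (adjusted p from 0.0523 to 0.185 in limma). Averaged over probes ACTA1 had 0.30 and CDH5 -1.07, and neither passed. The summed signal, as a multiple of the array's 75th percentile, was 448 to 527 in TAG and 247 to 274 in Exoseal over 4 smooth muscle genes, and 4.16 to 8.77 and 13.3 to 50.8 over 3 endothelial genes. The part of these shifts in the levels of LYZ, CD86 and AIF1 was not tested. In a piece of artery, fewer macrophages and less of a transcript per macrophage cannot be told apart.

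**Figure D1:**
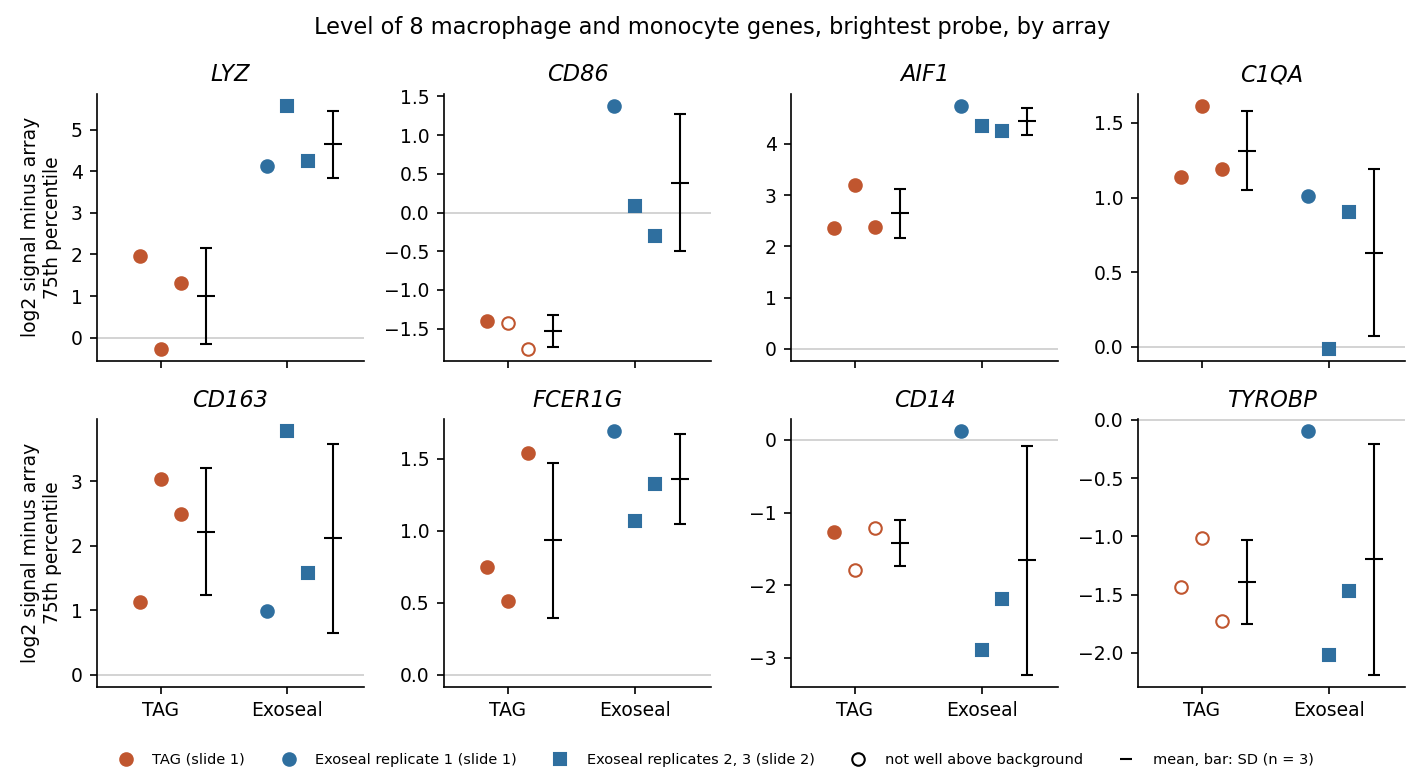
Level of the brightest probe of each gene on each array, on the log2 scale relative to that array's 75th percentile (each panel has its own scale). Circles are arrays of slide 1, squares those of slide 2, open symbols were not well above background, and bars give mean and SD of 3 arrays. LYZ, CD86 and AIF1 separate the groups with TAG lower, and C1QA separates them with TAG higher by 0.68. Of all features, 35.7% had groups that did not overlap, and 16.7% had them apart with TAG lower.

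Lysozyme, the enzyme that cleaves bacterial cell wall peptidoglycan and a major secreted product of macrophages and neutrophils, moved most. The processed signal of its brightest probe, A_72_P737919, was 141, 21.4 and 48.3 on TAG replicates 1, 2 and 3, and 1186, 7186 and 1155 on Exoseal replicates 1, 2 and 3. Every TAG array lay below every Exoseal array, and the probe was well above background on all 6. The scaled level was 1.00 ± 1.15 (SD, n = 3) in TAG and 4.65 ± 0.81 (SD, n = 3) in Exoseal. This is a log2 fold change of -3.64 ± 0.66 (SE), with an adjusted p of 0.0229 in limma. The probe A_72_P721793 had -3.52 ± 0.72 (adjusted p = 0.0274 with every probe tested as its own feature).

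The third LYZ probe changed less. A_72_P177571, also well above background on all 6 arrays, had scaled levels of 1.05, 0.63 and 0.72 in TAG replicates 1, 2 and 3 and of 1.26, 2.90 and 0.96 in Exoseal replicates 1, 2 and 3. Exoseal replicate 2 was the high array, while TAG replicate 1 lay above Exoseal replicate 3, so the groups overlapped. Its log2 fold change was -0.91 ± 0.56 (SE, adjusted p = 0.305 over all probes). The direction was shared by all 3 probes, and the size was not. Against Exoseal replicate 1 alone the 3 probes had -3.11, -2.86 and -0.46.

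The fall of LYZ kept its direction in 18 alternative settings, from -4.12 to -2.69, and stayed past the threshold in 10 of them. With no scaling between arrays, tried after seeing the data, it was -5.35, against a median of -1.67 for all features. It passed without Exoseal replicate 1 (-3.90, adjusted p = 0.000123 in limma) and with that array counted as TAG (-3.13, adjusted p = 0.0271). The call ended without any 1 of the other 5 arrays, with adjusted p from 0.0579 to 0.116, and so did the call of every other feature. Within slide 1 LYZ had -3.11, and no p is given for a fit with 1 Exoseal array.

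CD86 is the ligand by which antigen-presenting cells costimulate T cells through CD28. Its brightest probe, A_72_P035396, had processed signals of 13.7, 9.60 and 5.68 on TAG replicates 1, 2 and 3, of which only the 13.7 was called well above background. On Exoseal replicates 1, 2 and 3 the signals were 178, 160 and 49.2, all well above background. The TAG arrays lay together below all Exoseal arrays, with scaled levels of -1.53 ± 0.20 (SD, n = 3) against 0.39 ± 0.88 (SD, n = 3). The fitted log2 fold change was -1.92 ± 0.52 (SE, adjusted p = 0.0482 in limma), which takes the signals of TAG replicates 2 and 3 as measured. With those arrays set to the faintest level called above background, or to their own where higher, CD86 was 3.09-fold lower in TAG by the group means. This value leaves out the scatter between arrays. The 95% confidence interval of the fitted log2 fold change ran from -3.09 to -0.74. The fit gave -2.91 against Exoseal replicate 1 alone (adjusted p = 0.0300), where 5.37% of all features were called lower.

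The other CD86 probe, A_72_P539768, gave no reading of the gene, since it was not well above background on any of the 6 arrays and its processed signal stayed between 0.970 and 4.08. Averaged with it, CD86 had a log2 fold change of 0.01. The brightest probe met the filter of 3 arrays by the Exoseal arrays alone and was not tested where all 6 were required. Its p is therefore no separate support for a fall. The brightest probe passed in 6 of 17 alternative settings. The call rested on that probe and was close to the threshold. It ended with normexp background correction (-0.78, adjusted p = 0.115), with scaling on the probes detected everywhere (-1.78, adjusted p = 0.0765) and with Exoseal replicate 1 counted as TAG (-0.69, adjusted p = 0.559). Leaving out any array but Exoseal replicate 1 also ended it, with adjusted p from 0.0813 to 0.184, while without Exoseal replicate 1 it passed at -1.42 (adjusted p = 0.0247).

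AIF1, which bundles actin during membrane ruffling and phagocytosis, was bright in both groups. Probe A_72_P394883 had scaled levels of 2.36, 3.20 and 2.38 on TAG replicates 1, 2 and 3 and of 4.74, 4.34 and 4.25 on Exoseal replicates 1, 2 and 3. All TAG arrays lay below all Exoseal arrays, with means of 2.64 ± 0.48 (SD, n = 3) and 4.44 ± 0.26 (SD, n = 3). TAG was lower by a log2 fold change of -1.80 ± 0.45 (SE, adjusted p = 0.0387 in limma). Against Exoseal replicate 1 alone, which holds no scatter between Exoseal arrays, it was -2.10.

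The second AIF1 probe, A_72_P496351, was dimmer. It was well above background on all 3 Exoseal arrays and on no TAG array, with processed signals of 11.7, 12.9 and 3.35 against 40.1, 246 and 32.4. With the TAG arrays at the faintest levels called above background, or at their own where higher, it was 1.87-fold lower in TAG. It did not pass the test (adjusted p = 0.148 over all probes). It entered the test through the Exoseal arrays alone, so it is no separate support for the fall of AIF1. Averaged over both probes, AIF1 had -1.60 and did not pass (adjusted p = 0.0651). The brightest probe was lower in TAG in 18 alternative settings, from -2.26 to -1.12, and passed in 8. The call ended without any array other than Exoseal replicate 1 (adjusted p from 0.0674 to 0.170) and with Exoseal replicate 1 counted as TAG (-1.12, adjusted p = 0.255), and it held without Exoseal replicate 1 (-1.65, adjusted p = 0.0132).

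**Figure D2:**
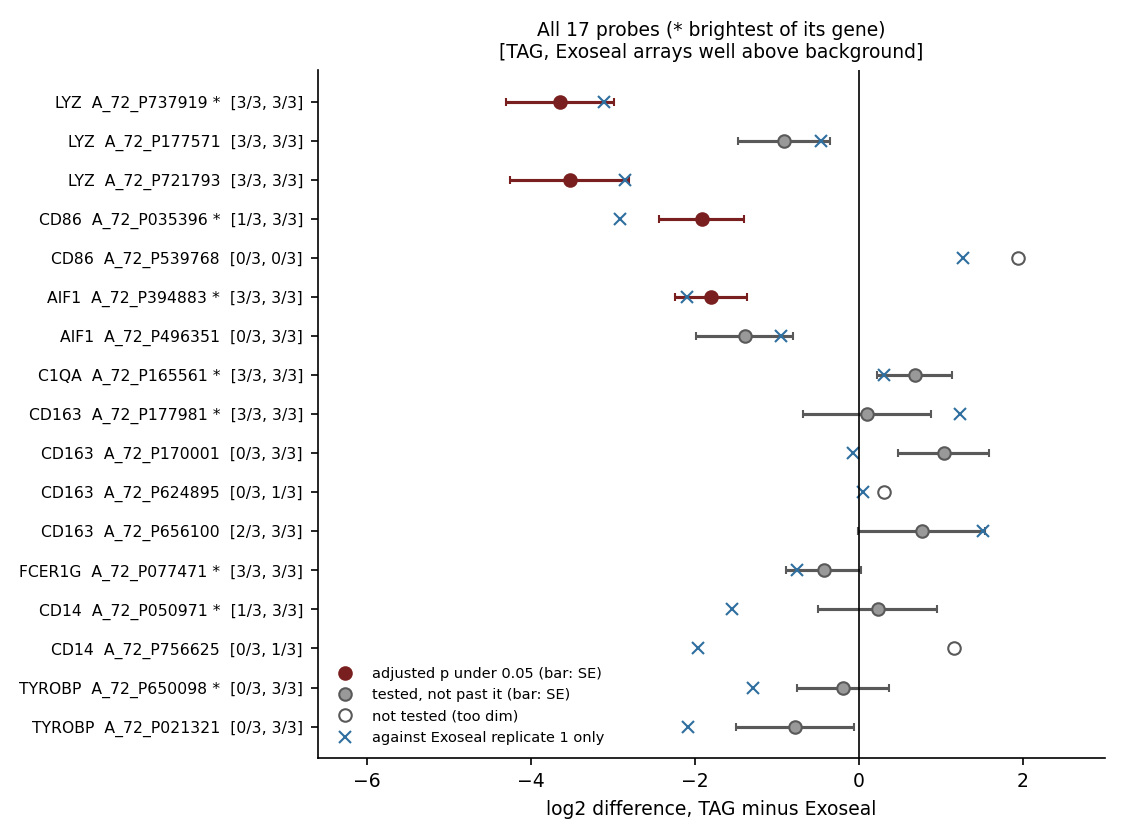
Log2 difference between TAG and Exoseal for each of the 17 probes, with the number of arrays of each group on which the probe was well above background in brackets. Circles with SE bars are probes tested as features of their own, open circles are probes too dim to be tested, and crosses set the TAG mean against Exoseal replicate 1 alone. The 4 probes past the threshold belong to LYZ (2), CD86 and AIF1, and the CD14 and TYROBP probes move left against Exoseal replicate 1.

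Over all 17 probes, 7 were well above background on all 6 arrays: the 3 of LYZ and 1 each of AIF1, C1QA, CD163 and FCER1G. For 7 others no TAG array reached that call. Each TAG array showed 8 or 9 of the 17 probes above background, and each Exoseal array 14 or 15. Among all probes the share per array was also lower in TAG, at 34.7% to 41.2% against 60.6% to 70.8% in Exoseal. Of all 43380 probes, 12887 were above background on all 6 arrays. Of the 14 probes that could be tested, 4 were past the threshold, all lower in TAG, where 3.69% of all 22720 probes tested were called lower and 10.8% in either direction. Of these 14, 4 had no TAG array above background and passed the filter on dim probes through the Exoseal arrays alone. The brightest CD86 and CD14 probes, above background on 1 TAG array, also reached the 3 arrays needed by Exoseal alone. The number of the 17 probes with a lower mean in TAG was 9 at the scaling used and 12 with quantile scaling or within slide 1. No such count was made over all probes. The median log2 fold change of all features was 0.03 at the scaling used, -0.08 with quantile scaling and -0.13 within slide 1.

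C1QA, the A chain of the C1q molecule that starts the classical complement pathway and that tissue macrophages make in quantity, had a higher scaled mean in TAG and did not pass. Its probe, A_72_P165561, had scaled levels of 1.14, 1.62 and 1.19 in TAG replicates 1, 2 and 3 and of 1.01, -0.01 and 0.90 in Exoseal replicates 1, 2 and 3. All TAG arrays lay above all Exoseal arrays, but 35.7% of all features also had groups that did not overlap. TAG exceeded Exoseal by 0.68 ± 0.46 on the log2 scale (SE, adjusted p = 0.355 in limma), with a 95% confidence interval from -0.35 to 1.72. It stayed above 0 in 18 alternative settings that scale the arrays, from 0.22 to 0.87. The unscaled signals, added after seeing the data, ran the other way, at 80.0, 78.9 and 44.0 in TAG and 137, 149 and 114 in Exoseal (log2 difference -1.03), against a median of -1.67 for all features without scaling.

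CD163, which takes up haptoglobin-haemoglobin complexes and marks macrophages at sites of bleeding, varied more within the groups than between them. The scaled levels of its brightest probe, A_72_P177981, were 1.12, 3.04 and 2.49 in TAG replicates 1, 2 and 3 and 0.98, 3.78 and 1.58 in Exoseal replicates 1, 2 and 3. Exoseal replicate 2 was highest, with a processed signal of 2064 against 135 and 183 in the other Exoseal arrays. The log2 fold change of 0.10 ± 0.77 (SE, adjusted p = 0.944 in limma) had a 95% confidence interval from -1.63 to 1.84. The sign turned without TAG replicate 2 (-0.31) or 3 (-0.03) and without Exoseal replicate 1 (-0.46) or 3 (-0.16), and the value was 1.23 within slide 1.

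The other CD163 probes were dim. A_72_P656100, above background on 5 of 6 arrays, had scaled levels of -1.70, -0.09 and 0.70 in TAG and of -1.87, 0.34 and -1.86 in Exoseal, with TAG replicate 3 and Exoseal replicate 2 high. Its log2 fold change was 0.77 ± 0.78 (SE, adjusted p = 0.543 over all probes). A_72_P170001 was above background on all Exoseal arrays and on no TAG array, so that no fold can be given. On TAG replicate 2 a processed signal of 8.55 was not called above background, and on Exoseal replicate 3 a signal of 6.35 was. The fourth probe was above background on Exoseal replicate 2 alone. The 2 brighter probes shared their low arrays, TAG replicate 1 and Exoseal replicates 1 and 3.

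**Figure D3:**
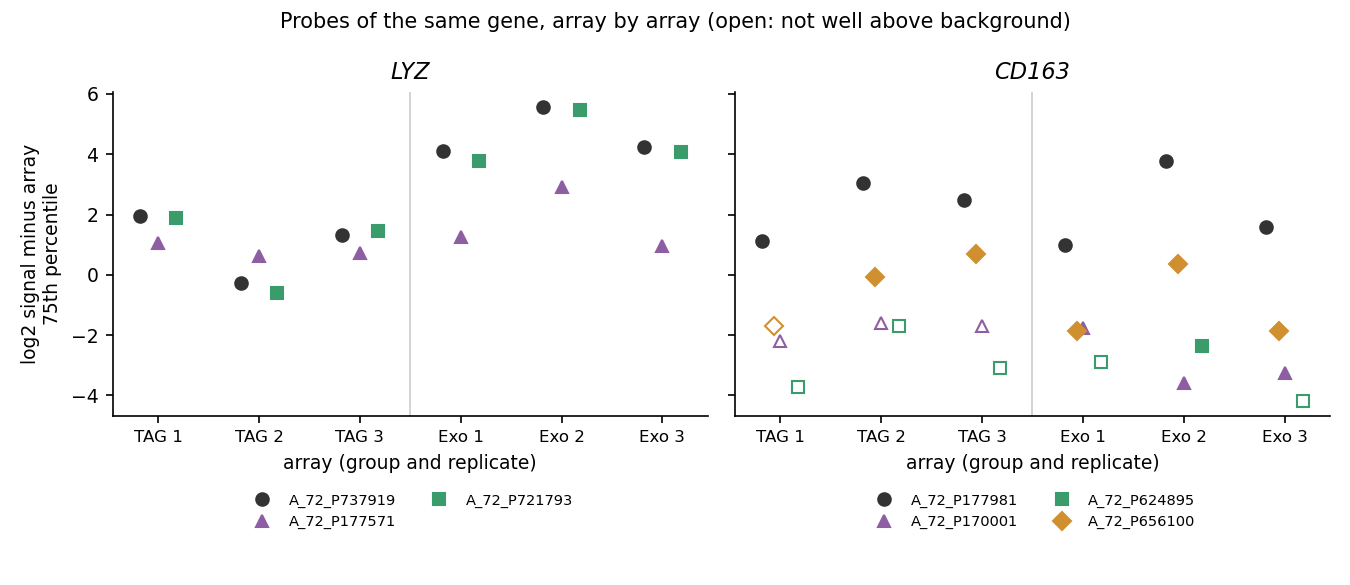
Scaled level (log2, relative to each array's 75th percentile) of the 3 LYZ probes and the 4 CD163 probes on each array, with open symbols where the probe was not well above background. LYZ and CD163 were both highest in Exoseal replicate 2, and in TAG replicate 2 LYZ was at its lowest (-0.27) while CD163 was high (3.04).

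FCER1G and TYROBP (DAP12) are short membrane adaptors whose cytoplasmic ITAM motifs pass signals from Fc receptors and from TREM receptors to the kinase SYK. The FCER1G probe was above background on all 6 arrays, with scaled levels of 0.74, 0.51 and 1.54 in TAG replicates 1, 2 and 3 and of 1.69, 1.07 and 1.32 in Exoseal replicates 1, 2 and 3. TAG replicate 3 lay among the Exoseal arrays, and the other TAG arrays below them. The log2 fold change of -0.43 ± 0.46 (SE, adjusted p = 0.575 in limma) had a 95% confidence interval from -1.46 to 0.61, and it was negative in 18 alternative settings (-0.89 to -0.07). With no scaling between arrays, tried after seeing the data, FCER1G was lower by -2.14 and passed (adjusted p = 0.0138), where the median of all features was -1.67.

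TYROBP was well above background on every Exoseal array by both of its probes, and on no TAG array by either. Probe A_72_P650098 had processed signals of 13.5, 12.8 and 5.82 in TAG and of 63.9, 37.2 and 22.0 in Exoseal. After scaling the groups overlapped. The faintest level called above background was -1.74 to -1.07 on TAG arrays and -5.08 to -2.42 on Exoseal arrays, so TYROBP has only an upper limit in TAG and no fold can be given. The fitted log2 value was -0.19 ± 0.56 (SE, adjusted p = 0.847 in limma). Against Exoseal replicate 1 alone it was -1.29, and -2.08 for the other probe.

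CD14 presents lipopolysaccharide to the TLR4 receptor complex and is the classic surface marker of monocytes. Its brightest probe had processed signals of 15.1, 7.45 and 8.29 on TAG replicates 1, 2 and 3, with the 15.1 alone called above background, and of 74.3, 20.3 and 13.4 on Exoseal replicates 1, 2 and 3. Exoseal replicate 1 was the high array, with a scaled level of 0.12 against -2.89 and -2.19 in the other Exoseal arrays, and the TAG levels of -1.27, -1.79 and -1.22 lay between. The fitted log2 value was 0.23 ± 0.72 (SE, adjusted p = 0.861 in limma), with a 95% confidence interval from -1.39 to 1.85. It became -1.54 within slide 1 and 1.12 without Exoseal replicate 1 (adjusted p = 0.0799), and it was also negative without Exoseal replicate 2 (-0.39) or 3 (-0.04). The second probe was above background on Exoseal replicate 1 alone, as were 3506 of the 6499 probes detected on a single array. The part of this in the CD14 level was not tested.

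The change of LYZ and AIF1 relative to the genes that were detected on every array and did not pass was taken within each array, which makes it independent of the scaling. The genes were set against each other by the outcome of the test, so the direction follows from that choice and the values are a description. Relative to C1QA, LYZ changed by -4.32 and AIF1 by -2.48 on the log2 scale. Relative to FCER1G the values were -3.21 for LYZ and -1.37 for AIF1. Relative to CD163 they were -3.74 and -1.90, and for AIF1 the groups overlapped. An exact permutation test of 3 arrays against 3 cannot go below a two-sided p of 0.1, so no such difference could pass.

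**Figure D4:**
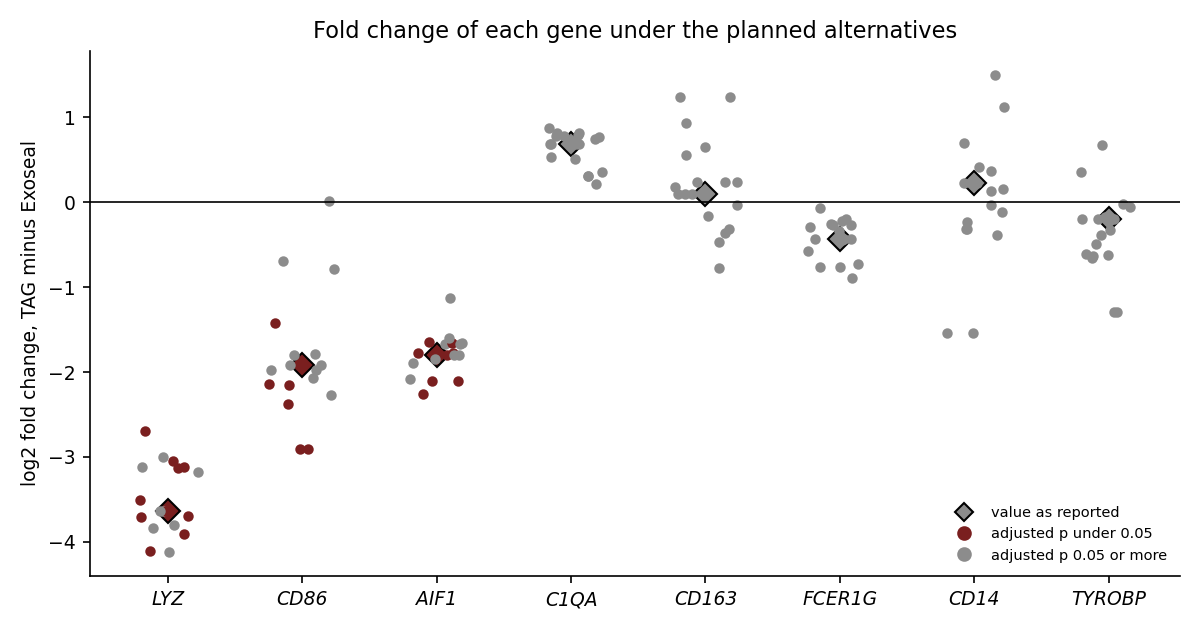
Log2 fold change (TAG minus Exoseal) of each gene as reported (diamonds) and under the alternative settings other than those added after seeing the data (circles), dark red where the adjusted p was under 0.05. Among the settings plotted, LYZ and AIF1 stay below 0, CD86 has 1 value at 0.01, C1QA stays above 0, and CD163, CD14 and TYROBP lie on both sides; with no scaling between arrays, which is not plotted, C1QA is at -1.03.

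The genes that work with these 8 were taken as 8 lists of partners, in which 46 of 147 genes other than the 8 could be tested. Of these, 5 passed, 3 higher and 2 lower in TAG, or 10.9% against 10.3% of all features. The partners as a whole were thus called at about the background rate, and their median log2 fold change was 0.17 against 0.03 for all features.

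Downstream of the adaptors, SYK, the kinase that docks on phosphorylated ITAMs, rose in TAG by 2.26 ± 0.45 on the log2 scale (SE, adjusted p = 0.0245 in limma), as 1 of 6 tested partners of TYROBP and FCER1G. Its processed signals were 19.9, 27.5 and 19.1 on TAG replicates 1, 2 and 3 and 11.5, 28.3 and 10.2 on Exoseal replicates 1, 2 and 3, so the groups overlapped before scaling and were apart after it. It passed with quantile scaling (2.15) and with slide as a block, and not with median scaling (adjusted p = 0.0724) or averaged with its other probe (2.08, adjusted p = 0.124), which was above background on Exoseal replicate 1 alone. The median of the 6 was -0.05, and -1.11 within slide 1.

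In the complement list around C1QA, C3, the central component of the cascade, rose by 2.05 ± 0.47 (SE, adjusted p = 0.0326 in limma) and ITGB2, the beta chain of complement receptor 3, fell by 1.89 ± 0.52 (adjusted p = 0.0497), 2 of 10 partners. ITGB2 had processed signals of 15.1, 17.8 and 7.87 in TAG and 117, 489 and 66.2 in Exoseal, with no overlap, and it was also the only gene tested of the pan-leukocyte list. C3 had processed signals of 83.0, 37.2 and 29.2 in TAG and 43.6, 47.1 and 21.5 in Exoseal. Its groups thus overlapped before scaling and were apart after it. With slide as a block neither C3 (adjusted p = 0.128) nor ITGB2 (adjusted p = 0.0933) passed, nor did they with median scaling (adjusted p = 0.0677 and 0.0589). Averaged over its probes C3 had 1.40 (adjusted p = 0.0699 in limma). The median of the 10 was 0.95, and 0.47 within slide 1.

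Around CD163, HMOX1, the haem oxygenase that degrades the haem brought in by that receptor, had a log2 fold change of -3.60 ± 0.55 (SE, adjusted p = 0.0206 in limma), as the 1 of 7 partners that passed. Its brightest probe had scaled levels of -1.01, -0.17 and -0.05 in TAG and of 2.62, 4.16 and 2.78 in Exoseal, without overlap. A second probe, A_72_P689842, also well above background on all 6 arrays, had 0.77, -0.29 and 1.39 in TAG and -1.47, 0.64 and -0.94 in Exoseal, with the higher mean in TAG, and the mean of its 3 probes had -0.71 (adjusted p = 0.383). The probes of HMOX1 thus differ in direction. The median of the 7 was -0.05, and it was -0.77 with quantile scaling and -1.10 within slide 1.

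None of the 8 tested partners of CD14 passed, with TLR4 at 1.49 (adjusted p = 0.0523) and the NF-kappaB inhibitor NFKBIA at 1.45 (adjusted p = 0.116), nor did any of the 3 partners of CD86, with CD40 at 0.61 and CD274 at 0.91. The medians were -0.69 for the first list and 0.61 for the second, which fell to 0.05 with quantile scaling. The TLR4 probe was above background on 1 TAG and 2 Exoseal arrays, and the mean of its probes had 0.70 (adjusted p = 0.389 in limma). Another TLR4 probe, A_72_P165431, was above background on every Exoseal array and on no TAG array. Of 3 tested genes of the phagocyte lineage, the transcription factor KLF4 rose from a scaled level of -1.86 ± 0.88 in Exoseal to 0.63 ± 0.23 in TAG (SD, n = 3, adjusted p = 0.0276 in limma, and 0.105 with slide as a block), and smooth muscle and endothelial cells make it as well. The list's median was -0.76. None of the 9 granule, oxidase and lysosome genes beside LYZ passed, with the cholesterol carrier NPC2 at 1.44 (adjusted p = 0.0679), the oxidase subunit CYBA at -0.82 and a median of 0.22.

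Of the mast cell list, KIT, the stem cell factor receptor, was well above background on all 6 arrays, at 1.57 ± 0.91 in TAG and 1.93 ± 0.33 in Exoseal (SD, n = 3), and did not pass (-0.36, adjusted p = 0.697 in limma). Of the neutrophil list, 4 of 9 genes were named on the array and 3 tested. ARG1, arginase 1, was 3.51-fold lower in TAG with its TAG arrays at the faintest level called above background, or at their own where higher. No TAG array was well above background. ARG1 entered the test (adjusted p = 0.0281 in limma) through the Exoseal arrays alone, so that p is no support for a fall. The mean of its probes had -0.39 (adjusted p = 0.729), while S100A12 (1.72) and S100A8 (0.38) did not pass. Summed over the 4 genes, the signal as a multiple of the array's 75th percentile was 1.04 to 1.64 in TAG and 0.793 to 3.64 in Exoseal. For the 8 named T and NK cell genes the TAG sums lay inside the Exoseal range of 1.00 to 3.25, and none of the 3 tested passed. Of B and plasma cells 2 genes were named and none could be tested. The part of these cells in the levels of LYZ, CD86, CD14, FCER1G and TYROBP was not tested. Of 6 further macrophage markers, SPI1 was the only one named on the array, and it was above background on Exoseal replicate 1 alone.

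For each of the 5 genes whose brightest probe was above background on every array, the 1074 other named genes detected throughout were ranked by Pearson's r with it over the 6 arrays, which is a description without a test and is shaped by the group difference itself. Closest to LYZ were HSDL2 (0.981), AIMP1 (0.977) and CDC42EP3 (0.977). Closest to AIF1 were NR1H3, the liver X receptor of macrophages and other cells (0.984), MGAT1 (0.976) and DAD1 (0.971). Closest to C1QA were SERPING1 (0.985), PEX6 (0.980) and LYPD1 (0.980), and closest to CD163 were MYLPF (0.979), GSTO1 (0.962) and ANXA1 (0.959). FCER1G had no neighbour above 0.871, which was CLPS, followed by CYTH2 (0.867) and ITGB8 (0.864).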

How the data were processed

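Per the labels' protocols, Cy3-labelled RNA of each artery went onto a 1-colour Agilent array, and per the file headers the deposited intensity values come from Agilent Feature Extraction 11.0.1.1, which subtracts background within an array and does not scale between arrays. The authors' deposited table holds log2 values. All 6 of its columns share the same median (3.40) and 75th percentile (5.59), its scale against the scanner values is log2 intensity with no centring per gene, and how it was made is not stated in what was used here.

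Control and outlier spots were left out, 43380 of 43603 probes remained, and none of the 102 spots of the 17 probes was an outlier or saturated. Probes were named by RefSeq accession through a table of Sscrofa11.1 that served for names only (5435 probes, 2384 genes). The array's own build is unstated, so no coordinates are printed. The log2 processed signal, less the 75th percentile of its array, was tested with limma 3.58.1 in R 4.3.3 (TAG minus Exoseal, two-sided). Each gene was represented by its brightest probe, and features had to be well above background on at least 3 arrays (20857 features). A second fit took every probe as a feature (22720 probes). Both fits were tested on simulated data. For normexp the median foreground signal was used, as no mean signal is among the columns used.

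Named genes are the 8 genes and their probes, up to 4 partners past the threshold per list or otherwise those with the smallest p, and the 3 closest profiles. S100A12 and S100A8 were named after their values were seen. The genes, lists and tests were chosen with earlier results of these data known. Same-numbered replicates do not deviate together (correlations -0.20, 0.07 and -0.08 for numbers 1, 2 and 3) and were not treated as pairs. With 3 arrays per group, their number limits the precision.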

Additional observations from a re-analysis of the deposited data

How the results depend on the processing

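Of the 19 alternatives tried on the test, 6 left LYZ, CD86 and AIF1 all past the threshold and 7 left no member past it. The count of members past the threshold, 3 as reported, was 1 with scaling on probes detected on all arrays, with the mean of probes and with Exoseal replicate 1 counted as TAG, 0 without the filter and 5 with no scaling between arrays, an alternative added after seeing the data. All features past the threshold, 2139 as reported, numbered 1105 with median scaling, 1152 with normexp, 0 without the filter (13160 at an unadjusted p under 0.05 in limma), 3529 with Exoseal replicate 1 as TAG, 10533 with no scaling and 5629 without Exoseal replicate 1 under quantile scaling, also added. Calls higher in TAG were 64.2% of calls as reported, 49.1% with quantile and 46.0% with median scaling, and the median of all features moved to -0.08 and -0.43. Partner genes past the threshold, 5 as reported, were 2 with median scaling or the mean of probes, 0 without the filter, 9 with every probe tested, 8 with slide as a block and within slide 1, 22 with no scaling and 12 without Exoseal replicate 1 under quantile scaling. Leaving out 1 array gave 0 to 6957 features, 0 to 3 members and 0 to 16 partners; the counts of 0 came with each array but Exoseal replicate 1, with 4081 to 5689 features at an unadjusted p under 0.05 in limma. With the replicate number as a replicate block, 0 features, members and partners passed (5699 features unadjusted), and 1 of 6 arrays correlated best with its own number. Of 15 pairs of a member that passed with one that did not, chosen by that outcome, 12 had groups that did not overlap and 5 with the mean of probes.

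Of genes not past the threshold as reported, CD163 reversed to -0.36 with median scaling, -0.77 with Exoseal replicate 1 as TAG, -1.61 with no scaling and -0.26 without that replicate under quantile scaling, and ranged from -0.46 to 0.93 leaving out 1 array. CD14 had -0.23 with median, -0.31 with quantile and -0.11 with normexp scaling, -0.32 in the authors' values, -1.54 with slide as a block or within slide 1, -1.48 with no scaling, and -0.39 to 1.12 leaving out 1 array. TYROBP had 0.68 with Exoseal replicate 1 as TAG and -0.61 to 0.36 leaving out 1 array, and C1QA had -1.03 with no scaling. CD86 had 0.0140 as the mean of its probes, which takes in a probe that was dim on all arrays. Otherwise the cause was not tested. Signal over background limits CD86, CD14 and TYROBP, which were above background on at most 1 TAG array.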

Other observations

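Detection on a single array was concentrated on 2 of the 6 arrays. Of 6499 probes well above background on exactly 1 array, 3506 were so on Exoseal replicate 1 and 2756 on Exoseal replicate 2, against 46 to 83 on each TAG array and 51 on Exoseal replicate 3. Among the probes of the 8 genes, the second CD14 probe was detected on Exoseal replicate 1 alone, with a processed signal of 26.2 against 1.33 to 2.91 on the others, and a CD163 probe on Exoseal replicate 2 alone, with 29.6 against 2.26 to 9.25. The transcription factor SPI1 read 36.7 on Exoseal replicate 1 and 1.59 to 4.18 elsewhere.

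LYZ and CD163 took different orders across the TAG arrays. In TAG replicate 2 the scaled level of LYZ was the lowest of the 6 arrays (-0.27) and that of CD163 the second highest (3.04), while in Exoseal replicate 2 both were at their highest (5.57 and 3.78). With 3 arrays a group this order was not tested.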
